A study of Homo sapiens with 9 samples.

Results

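Of 9 human oesophageal adenocarcinoma cell lines sequenced as bulk RNA, 3 held ERBB2 at more than 1000 CPM, and these 3 are described here against the other 6. CPM is a gene's count scaled to a fixed library total, after TMM adjustment of that total. The 3 lines were selected on their measured ERBB2 level alone, so that level is no finding. The ERBB2-high lines were OACP4_C, SK-GT-4 and ESO-51. The other lines were OE19, FLO-1, ESO-26, OE33, OAC_5.1_C and JH_EsoAd1. Every line was grown untreated to 80% confluency per the labels, each is an established tumour line represented by 1 library, and gastric cardia adenocarcinoma is given as the tissue of origin for all of them. The design text mentions 3 technical replicates of a line, but each line has 1 column of counts, so the unit of every comparison is the line and a p-value measures the spread between lines. In bulk RNA, fewer cells of a type and less RNA per cell cannot be told apart.

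ERBB2 (HER2) is a receptor tyrosine kinase of the EGF receptor family that has no known ligand of its own and signals by pairing with EGFR, ERBB3 or ERBB4, chiefly into the MAPK and PI3K pathways. In gastro-oesophageal adenocarcinoma it is a target of antibody drugs, and high levels often come with extra copies of a stretch of chromosome 17q12 that also holds GRB7, MIEN1, PGAP3 and STARD3. DNA copy number was not measured in these libraries.

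The table held 16801179 to 69881539 counts per library, with 31186139 to 57995387 in the ERBB2-high lines. A TMM-scaled CPM of 1 was reached by 13687 to 15277 genes, and 3 counts, the floor used for a count of 0, corresponded to 0.0402 to 0.174 CPM. Mitochondrial genes took 1.48% to 24.7% of counts, the highest share being that of JH_EsoAd1. OE19 is widely known as a line with amplified ERBB2, yet the library labelled OE19 held ERBB2 at 184 CPM, so that library goes against its name. All line names used here are those of the labels, and the identity of the lines was not tested. ESO-26 and OE33 were low in epithelial genes: EPCAM, an epithelial adhesion molecule, stood at 5.15 and 0.189 CPM there, against 133 to 527 CPM in the remaining 4 other lines. ESO-26 also held 439 CPM of summed fibroblast markers, against at most 88.4 CPM in any other library. Counts over gene lists are given without ESO-26 and OE33 where that changed them by more than 1.5 times or altered the balance of higher and lower.

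Summed haematopoietic markers lay at 3.80 to 7.51 CPM in the ERBB2-high lines and at 3.82 to 27.7 CPM in the other lines. Summed endothelial markers lay at 2.503 to 16.96 CPM in the ERBB2-high lines and at 0.868 to 58.4 CPM in the other lines. Of 9 fibroblast markers, 4 had no count in each ERBB2-high library, and the summed level was 3.08 to 27.6 CPM there, against 1.92 to 439 CPM in the other lines. The part of such cells in any difference was not tested.

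ERBB2 chose the groups and GRB7 was named beside it as a marker, so their levels are a description without a test. ERBB2 stood at 1377, 18376 and 3534 CPM in OACP4_C, SK-GT-4 and ESO-51. In the other lines it had a lowest value of 10.4 CPM in ESO-26, a median of 179 CPM and a highest value of 651 CPM in FLO-1. OACP4_C was the line just above the limit of 1000 CPM and FLO-1 the line just below it. ERBB2 alone took 1.83% of all counts in SK-GT-4, where only 1 gene had a higher CPM, 0.389% in ESO-51 and 0.139% in OACP4_C, against 0.00107% to 0.0695% in the other lines. GRB7, an adaptor protein that binds the phosphorylated receptor, stood at 358, 2991 and 683 CPM in OACP4_C, SK-GT-4 and ESO-51, against 0.985 to 129.8 CPM in the other lines.

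The genes next to ERBB2 were read in chromosomal order, and again without a test because they share its place on the chromosome. MIEN1, whose product promotes cell migration and whose gene lies between ERBB2 and GRB7, stood at 190.1, 850.0 and 356 CPM in OACP4_C, SK-GT-4 and ESO-51. In the other lines MIEN1 lay at 15.3 to 59.3 CPM, below every ERBB2-high line. PGAP3, which remodels GPI anchors, stood at 65.5, 1363 and 388 CPM in OACP4_C, SK-GT-4 and ESO-51, against 11.8 to 67.4 CPM in the other lines. OACP4_C thus overlapped FLO-1 in PGAP3, whereas SK-GT-4 and ESO-51 were above every other line.

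**Figure D1:**
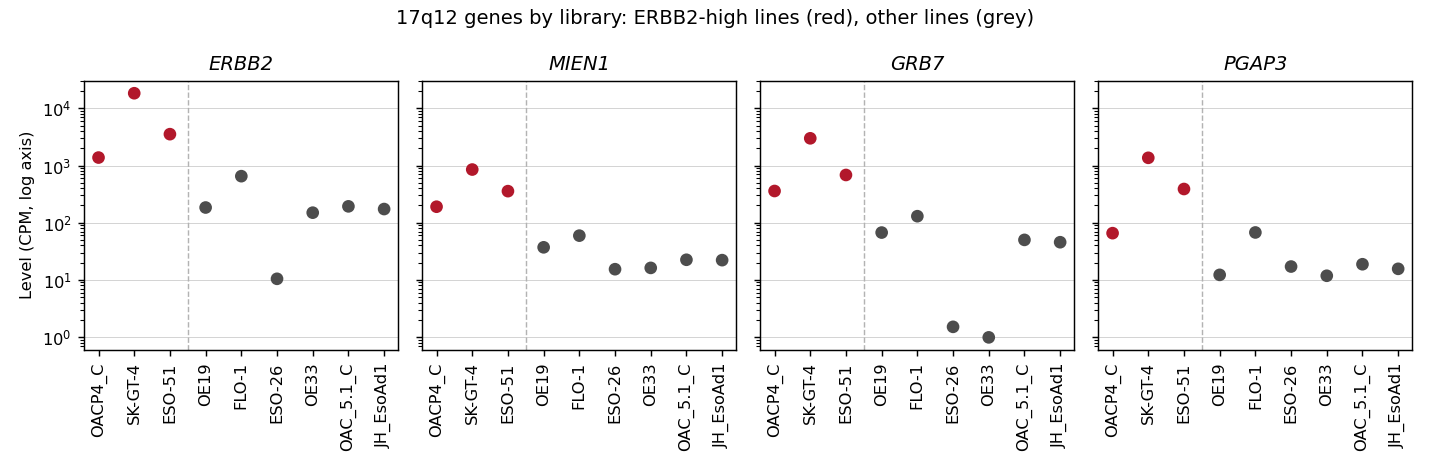
Level of ERBB2, MIEN1, GRB7 and PGAP3 in CPM on a log axis, 1 point per library, with the 3 ERBB2-high lines in red at the left of each panel and the 6 other lines in grey. ERBB2, MIEN1 and GRB7 separate the groups in these libraries, and for PGAP3 OACP4_C (65.5 CPM) lies beside FLO-1 (67.4 CPM).

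The windows around the transcript starts are shown for ERBB2 and MIEN1 because these neighbours were high in the same lines. They are RefSeq sequence of build GRCh38.p14, 250 bases before to 50 after the start of the listed transcript, 5′ to 3′ on the gene's strand. ERBB2 is at chr17:39687844-39688143 on the plus strand and MIEN1 at chr17:39730483-39730782 on the minus strand. Capitals mark the letters CCGGAAG, the core of a binding motif of ETS transcription factors, on either strand.
ERBB2: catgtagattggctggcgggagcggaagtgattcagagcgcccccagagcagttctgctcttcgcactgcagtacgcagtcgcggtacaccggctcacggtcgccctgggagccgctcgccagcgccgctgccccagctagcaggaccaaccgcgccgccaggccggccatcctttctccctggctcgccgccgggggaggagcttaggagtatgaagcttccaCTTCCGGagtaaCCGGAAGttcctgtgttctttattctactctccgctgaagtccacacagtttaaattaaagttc
MIEN1: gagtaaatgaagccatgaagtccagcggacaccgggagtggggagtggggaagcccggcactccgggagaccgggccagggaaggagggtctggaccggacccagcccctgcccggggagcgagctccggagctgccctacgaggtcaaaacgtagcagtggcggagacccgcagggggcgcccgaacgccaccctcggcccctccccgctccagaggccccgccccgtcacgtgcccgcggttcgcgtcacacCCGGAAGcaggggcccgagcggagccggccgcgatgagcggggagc
The ERBB2 window held 2 matches, 1 on each strand, and the MIEN1 window 1 match, while 10.3% of 35116 such windows held the motif. The PGAP3 window lies head to head with that of ERBB2, shares 136 bases with it (positions 39688008 to 39688143) and so holds the same 2 matches. The AP-2 type motif GCCNNNGGC, which reads the same on both strands, was in 23.2% of all windows and in none of these 3. Only the listed transcript of each gene was used, so motifs at the starts of other transcripts were not examined. GRB7 is named only.

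How far the high levels reached along the chromosome differed between the 3 lines. In OACP4_C the unbroken run of expressed protein-coding genes at least 2-fold above all 6 other lines held 3 genes, ERBB2, MIEN1 and GRB7. In SK-GT-4 the run held 4 genes and began at PGAP3. In ESO-51 it held 6 genes and began at STARD3, a cholesterol-binding endosomal protein, which stood at 296 CPM there and at 238 CPM in OACP4_C but at 27.9 CPM in SK-GT-4, against 38.2 to 104 CPM in the other lines. Past GRB7, IKZF3 broke the run in all 3 lines. IKZF3 was low throughout, at most 4.11 CPM in the ERBB2-high lines and 0 to 11.1 CPM in the other lines.

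OACP4_C held further raised genes on both sides of that run, past PGAP3 and IKZF3. Among them RPL19, MED1, STARD3, ORMDL3 and MED24 were at least 2-fold above all 6 other lines. Its short run thus does not measure how far the raised levels reached. The proteasome subunit gene PSMD3 stood at 974 CPM in OACP4_C but 85.1 and 136 CPM in SK-GT-4 and ESO-51, against 137 to 346 CPM in the other lines. CDK12, a kinase of transcription elongation, stood at 403 CPM in OACP4_C but 75.3 and 77.2 CPM in SK-GT-4 and ESO-51, against 72.3 to 154 CPM in the other lines. GSDMB, a gasdermin, was above every other line in all 3, at 76.4, 23.7 and 63.5 CPM in OACP4_C, SK-GT-4 and ESO-51 against at most 18.7 CPM.

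Over 52 expressed protein-coding genes around ERBB2, a window chosen after the values were seen, 19 genes (36.5%) in OACP4_C, 8 (15.4%) in SK-GT-4 and 12 (23.1%) in ESO-51 were at least 2-fold above all 6 other lines. Over all genes tested the same share was 1.54% in OACP4_C, 2.75% in SK-GT-4 and 2.54% in ESO-51. The window holds ERBB2, which chose the lines, and its neighbours, so nothing is read from these shares. In this window 4 genes met the limit in all 3 lines: ERBB2, MIEN1, GRB7 and, further along the arm, JUP. Next to JUP, EIF1 and P3H4 were high in OACP4_C (2947 and 408 CPM) and SK-GT-4 (1862 and 1365 CPM) but not in ESO-51 (299 and 15.7 CPM), against at most 377 and 87.6 CPM in the other lines. EIF1 has close pseudogene copies, so its counts are less certain.

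**Figure D2:**
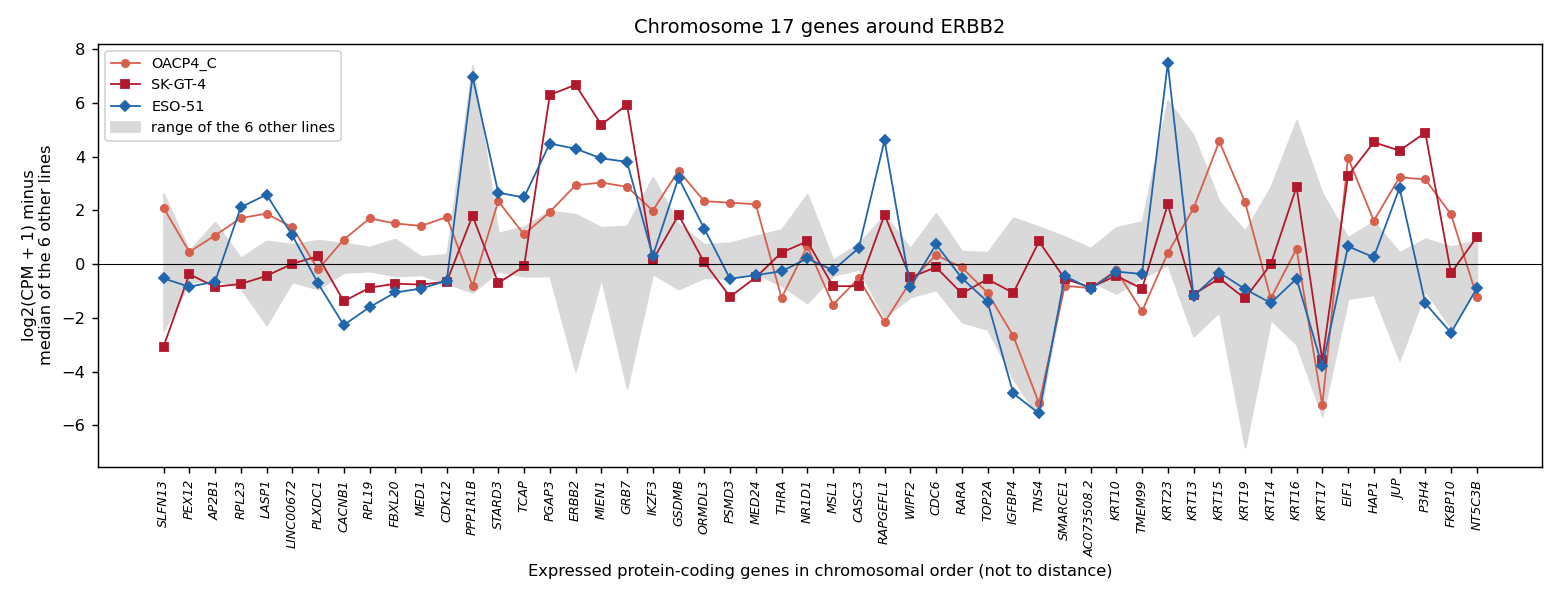
Difference in log2(CPM + 1) from the median of the 6 other lines for 52 expressed protein-coding genes of chromosome 17 in order, 1 line per ERBB2-high library, with the range of the other lines in grey. All 3 libraries stand at least 2-fold above the grey range at ERBB2, MIEN1, GRB7 and JUP, and the flanking genes differ by line.

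Of 27 listed 17q12 neighbours, 21 passed the filter of 1 CPM in at least 3 libraries. Their group means lay at least 2-fold higher in the ERBB2-high lines for 7 and lower for 0, beside 8.79% higher and 7.83% lower among all 15784 genes tested. For 3 of the 21 (MIEN1, GRB7 and GSDMB) the groups did not overlap with the ERBB2-high lines above, beside 2.18% of all genes. Since closeness to ERBB2 is tied to how the lines were chosen, nothing is read from these counts. The median log2 fold change of the list was 0.60 and turned to -0.25 without OACP4_C.

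Across all genes, none passed an adjusted p of 0.05 in either direction. With edgeR's quasi-likelihood test and Benjamini-Hochberg adjustment over 15784 genes, 0 were called higher (0%) and 0 lower (0%), and the smallest adjusted p was 0.246. An unadjusted p under 0.05 was reached by 1282 genes (8.12%). DESeq2's Wald test on the same 15784 genes called 89 higher and 242 lower. For 172 of those 331 the 2 groups of lines did not overlap. The calls include 4 of the listed 17q12 neighbours, from which nothing is read because the lines were chosen on ERBB2. Limma on log2(FPKM + 0.1) called 2 genes higher and 0 lower. Without the library labelled OE19 edgeR called 1 gene, BCL2L15, a BCL2 family gene named here for that reason alone, as higher (adjusted p = 0.0148).

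Separation by value was also counted. The ERBB2-high lines lay above all 6 other lines in 344 genes and below all of them in 303 (1.92%). With a gap of at least 2-fold on the log2(CPM + 1) scale between the nearest lines, 28 genes (0.177%) were higher and 11 (0.0697%) lower. Among the 28, ACTL8, CACNA1D, CYP2B6 and NKD1 were under 1 CPM in every other line. These genes passed the filter of 1 CPM in 3 libraries only through the lines where they were high. Likewise, lower genes such as MSRB3 and HEG1 passed it only through the other lines. The 28 lay on 16 chromosomes, with 4 on chromosome 17, namely ERBB2, MIEN1, GRB7 and JUP. Pearson's r over all genes tested had a median of 0.839 (0.802 to 0.843) between the ERBB2-high libraries, 0.793 (0.718 to 0.877) across the groups and 0.780 (0.737 to 0.8502) between other lines, so the ranges overlapped.

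The genes named next are the 15 in each direction with the smallest unadjusted p among those whose groups did not overlap. None passed edgeR's adjusted test, in which the adjusted p-values of these 30 lay between 0.246 and 0.521, whereas DESeq2 called all 30, with SLC12A4 at the largest adjusted p of 0.0054. Below, passing refers to edgeR, and calls by DESeq2 are given where a list had any. Those calls are to be read beside the 331 that DESeq2 made over all 15784 genes. Beside the counts over lists below, 8.79% of all genes tested had means at least 2-fold higher and 7.83% lower. Without ESO-26 and OE33 these shares were 6.58% and 8.19%. PPFIBP2, a liprin scaffold protein, stood at 51.1, 145 and 154 CPM in OACP4_C, SK-GT-4 and ESO-51. In the other lines it ranged around a median of 10.7 CPM with a highest value of 17.4 CPM, a log2 fold change of 3.43 ± 0.45 (SE; edgeR adjusted p = 0.246). TMEM63A, a mechanically gated ion channel, stood at 102, 217 and 194 CPM in the ERBB2-high lines, against 17.2 to 43.4 CPM in the other lines.

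FUT2, the fucosyltransferase that sets secretor status, stood at 13.0, 95.5 and 41.3 CPM in OACP4_C, SK-GT-4 and ESO-51, against a median of 2.28 CPM and at most 3.34 CPM in the other lines. Its log2 fold change was 4.57 ± 0.71 (SE). VEGFA, the vascular growth factor, stood at 172, 494 and 402 CPM in the ERBB2-high lines, against 30.0 to 82.7 CPM in the other lines. GPT2, the mitochondrial alanine aminotransferase, had its lines close together, at 136, 126 and 107 CPM in OACP4_C, SK-GT-4 and ESO-51 against 25.4 to 48.6 CPM in the other lines. PSAT1 of serine synthesis stood at 215, 559 and 282 CPM in the ERBB2-high lines, against 68.7 to 142 CPM in the other lines. SAT1, the enzyme that acetylates spermidine and spermine, stood at 231, 202 and 189 CPM in the ERBB2-high lines, against 33.9 to 88.1 CPM in the other lines.

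KCNQ1, a voltage-gated potassium channel, stood at 8.67, 60.7 and 29.6 CPM in OACP4_C, SK-GT-4 and ESO-51, against at most 1.45 CPM in the other lines. Its antisense RNA overlaps it and no source used here gives the strand setting of the counting, so the 2 cannot be told apart. ACTL8, an actin-like gene usually expressed in testis, stood at 69.9, 10.3 and 98.8 CPM in the ERBB2-high lines, against 0 to 0.991 CPM in the other lines. It thus passed the filter only through the ERBB2-high lines. Its log2 fold change was 7.63 ± 1.26 (SE). RALGAPA2, a subunit of the GTPase-activating complex for Ral, stood at 201, 165 and 161 CPM in the ERBB2-high lines, against 16.4 to 62.2 CPM in the other lines. The remaining higher genes were KBTBD11, ZNF117, LAT2, ARHGAP32 and TRIM14, with log2 fold changes of 2.74, 2.69, 2.97, 2.52 and 1.87. ZNF117 overlaps ERV3-1, so reads of these genes cannot be told apart.

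Among the lower genes, MSRB3 had the largest fold change of the 15. MSRB3, a methionine sulfoxide reductase, stood at 0.0856, 0.129 and 0.156 CPM in OACP4_C, SK-GT-4 and ESO-51, against a lowest value of 4.50, a median of 22.4 and a highest value of 89.3 CPM in the other lines. Its log2 fold change was -8.32 ± 1.32 (SE; edgeR adjusted p = 0.246). HEG1, a membrane mucin-like receptor, stood at 0.514, 0.613 and 0.469 CPM in the ERBB2-high lines, against 8.04 to 374 CPM in the other lines. MRC2, a receptor that takes up collagen, stood at 3.13, 1.45 and 0.603 CPM in the ERBB2-high lines, against 19.6 to 275 CPM in the other lines. TNC, the matrix glycoprotein tenascin-C, stood at 0.377, 7.29 and 6.08 CPM in the ERBB2-high lines, against 26.5 to 356 CPM in the other lines.

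Some lower genes were abundant in every library. MYL6, a myosin light chain, stood at 134, 99.0 and 80.2 CPM in OACP4_C, SK-GT-4 and ESO-51, against 248 to 440.4 CPM in the other lines. PIEZO1, a mechanosensitive channel, stood at 180.4, 169 and 74.0 CPM in the ERBB2-high lines, against 353 to 492 CPM in the other lines. GNAI2, an inhibitory G protein subunit, stood at 82.0, 51.6 and 54.5 CPM in the ERBB2-high lines, against 137 to 282 CPM in the other lines. The other 8 lower genes were PNMA1, SHOX2, SSC5D, FAM20C, WDR54, ITPR1, RRAD and SLC12A4, with log2 fold changes between -5.38 and -1.75. Of these, SHOX2, SSC5D and RRAD were under 10 CPM in all 9 libraries.

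**Figure D3:**
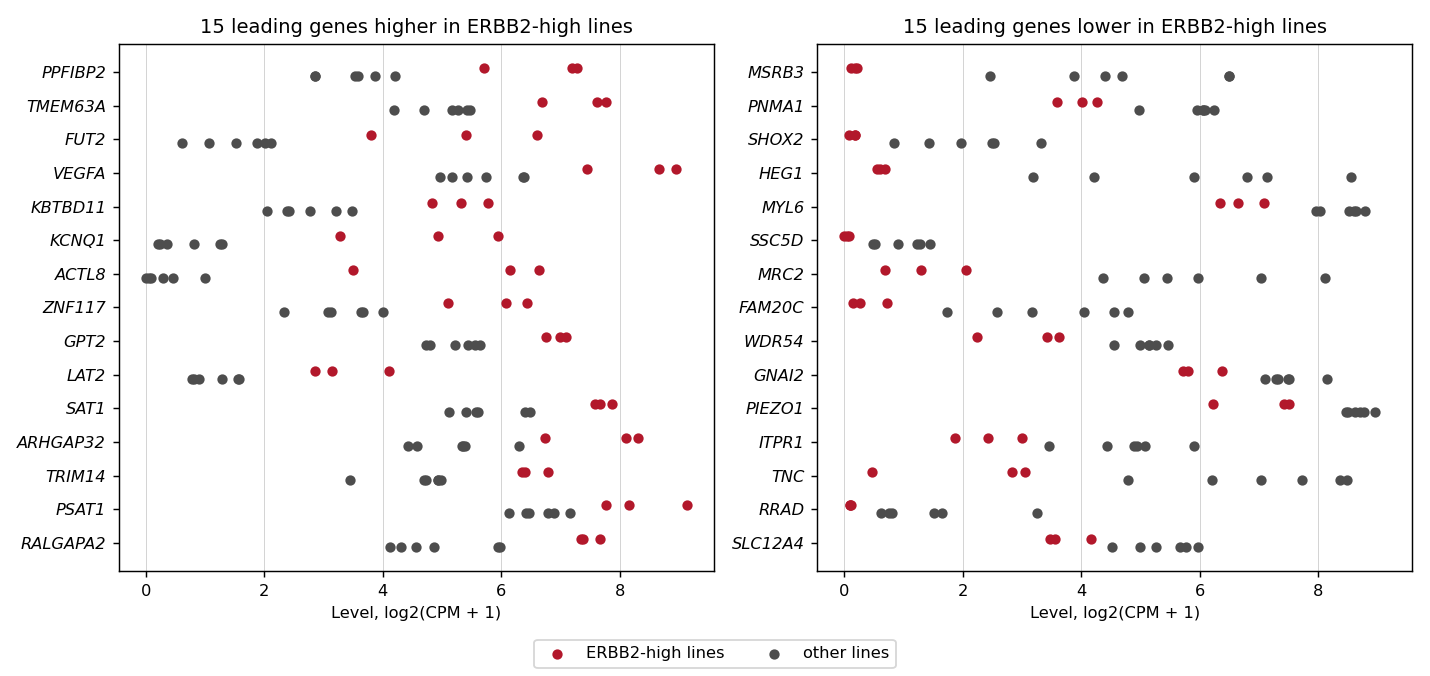
Level in log2(CPM + 1) of the 15 leading genes higher (left panel) and lower (right panel) in the ERBB2-high lines, in order of unadjusted p from the top, with the ERBB2-high lines in red above the other lines in grey in each row. By the choice of these genes the colours do not overlap. The gap between nearest lines is wide for ACTL8 and HEG1 and narrow for ARHGAP32 and SLC12A4.

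The levels of the other receptors of the family overlapped between the groups. EGFR stood at 851, 172 and 106 CPM in OACP4_C, SK-GT-4 and ESO-51, against 6.13 to 757 CPM in the other lines with a median of 148 CPM (log2 fold change 0.60 ± 1.08, SE; edgeR adjusted p = 0.905). ERBB3, which pairs with ERBB2 and has a weak kinase, stood at 153, 512 and 282 CPM in the ERBB2-high lines, against 1.97 to 723 CPM in the other lines (edgeR adjusted p = 0.872). The highest ERBB3 level was that of the library labelled OE19. ERBB4 stood at 0, 18.7 and 0.112 CPM in OACP4_C, SK-GT-4 and ESO-51, against 0 to 10.6 CPM in the other lines.

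Per gene length within a library, in FPKM, the balance of the family differed even among the ERBB2-high lines. ERBB2 was 1.20 times EGFR in OACP4_C, where EGFR reached 36.8 FPKM, 79.0 times EGFR in SK-GT-4 and 24.6 times EGFR in ESO-51. In the other lines the ratio lay between 0.188 in OAC_5.1_C and 3.04 in FLO-1. ERBB2 made up 51.7%, 96.2% and 89.8% of the summed FPKM of the 4 receptors in OACP4_C, SK-GT-4 and ESO-51. In the other lines it made up 14.7% to 66.6%, so OACP4_C lay below FLO-1 in this share. ERBB2 was also 9.93, 39.5 and 13.8 times ERBB3 in OACP4_C, SK-GT-4 and ESO-51, against 0.281 times in the library labelled OE19 and 11.6 times in OE33.

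Of 11 ligands of the family, 7 passed the filter and none passed the test. Means were 2-fold higher for 3 and lower for 1, or 0 and 1 without ESO-26 and OE33. EREG (epiregulin) stood at 588 CPM in OACP4_C but 0.935 and 2.26 CPM in SK-GT-4 and ESO-51, against 0.116 to 572 CPM in the other lines. TGFA, a ligand of EGFR, stood at 200.2, 90.4 and 24.9 CPM in OACP4_C, SK-GT-4 and ESO-51, against 0.0379 to 241 CPM in the other lines. AREG (amphiregulin) stood at 131, 29.1 and 39.9 CPM in the ERBB2-high lines, against 0.0379 to 116 CPM in the other lines. BTC, EGF and HBEGF reached at most 21.1, 2.26 and 15.8 CPM in the ERBB2-high lines, against at most 10.9, 1.22 and 22.8 CPM in the other lines. Of the neuregulins, the ligands of ERBB3 and ERBB4, NRG1 had 0 counts in all 3 ERBB2-high libraries, against 26.1 CPM in JH_EsoAd1 and at most 0.245 CPM in the remaining other lines. NRG2, NRG3 and EPGN stayed under 0.5 CPM in the ERBB2-high lines and reached at most 6.63, 1.27 and 4.68 CPM in the other lines. NRG4 stood at 1.49, 0.322 and 1.83 CPM in OACP4_C, SK-GT-4 and ESO-51, against 0.454 to 11.4 CPM in the other lines.

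Of 34 signalling partners of HER2, 33 were tested and 0 passed, while DESeq2 called 2. Group means were at least 2-fold higher for 7 and lower for 5 (4 and 2 without ESO-26 and OE33), and the list median of 0.17 stood beside -0.06 for all genes tested. The groups did not overlap for 2 higher members and 1 lower member, beside 2.18% and 1.92% of all genes. SRC, a membrane-bound tyrosine kinase, stood at 112, 159.9 and 119 CPM in OACP4_C, SK-GT-4 and ESO-51, against 25.0 to 83.5 CPM in the other lines (log2 fold change 1.41 ± 0.39, SE; edgeR adjusted p = 0.529). PDPK1, the kinase that activates AKT, stood at 73.5, 54.4 and 97.8 CPM in the ERBB2-high lines, against 18.7 to 41.3 CPM in the other lines (1.41 ± 0.32, SE; edgeR adjusted p = 0.470, DESeq2 adjusted p = 0.0113). PIK3CD, a catalytic PI3K subunit best known from leukocytes, stood at 6.54, 2.13 and 3.29 CPM in the ERBB2-high lines, against 10.1 to 30.4 CPM in the other lines. A PDPK1 pseudogene copy makes its counts less certain.

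Genes switched on by MAPK signalling split the ERBB2-high lines. All 19 were tested, 0 passed, 7 had means at least 2-fold higher and 1 lower, and the median log2 fold change was 0.70. Without OACP4_C the median was -0.35, and without ESO-26 and OE33 the count turned to 2 higher and 4 lower. DUSP5, a nuclear phosphatase of ERK, stood at 183, 3.35 and 0.0224 CPM in OACP4_C, SK-GT-4 and ESO-51, against 0.174 to 23.6 CPM in the other lines. SPRED1, an inhibitor of RAS signalling, stood at 67.8, 271 and 55.8 CPM in the ERBB2-high lines, against 20.7 to 61.4 CPM in the other lines. DUSP6, named after its values were seen, stood at 14.01 CPM in ESO-51, against a median of 24.4 CPM in the other lines. Nothing is read from this 1 gene in 1 library.

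Transcription factors described as acting on the ERBB2 promoter were examined in 14 genes, of which 10 were tested and 0 passed. Means were at least 2-fold higher for 7 and lower for 0, and the median was 0.83, or 0.31 without SK-GT-4. Without ESO-26 and OE33 the count was 4 higher and 0 lower. ELF3, an epithelial ETS factor, stood at 220.4, 256 and 262 CPM in OACP4_C, SK-GT-4 and ESO-51, against 0.347 to 178 CPM in the other lines, so its groups did not overlap by a narrow gap. The ETS factor ETV4 overlapped, at 40.0, 81.2 and 20.4 CPM in the ERBB2-high lines against 0.694 to 49.9 CPM in the other lines. MYB stood at 3.39, 23.1 and 42.5 CPM in the ERBB2-high lines, against 0.694 to 9.97 CPM in the other lines, and YBX1 at 299, 304 and 751 CPM, against 464 to 1331 CPM in the other lines.

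Columnar and epithelial genes had mostly higher means in the ERBB2-high lines. Of 14 tested columnar transcription factors, out of 16 listed, means were at least 2-fold higher for 13 and lower for 0, with a median of 1.15. Without ESO-26 and OE33 the count was 8 of 14, beside 6.58% of all genes under the same omission. None passed the test. HNF4G, a nuclear receptor of the gut epithelium, stood at 17.1, 47.4 and 114 CPM in OACP4_C, SK-GT-4 and ESO-51, against a median of 1.27 CPM and a highest value of 21.6 CPM, that of the library labelled OE19. FOXA3 stood at 1.23, 54.3 and 11.96 CPM in the ERBB2-high lines, against 0.247 to 6.82 CPM in the other lines. The groups did not overlap for 2 members, ELF3 and SOX9, or 14.3% of the list beside 2.18% of all genes. SOX9 had a narrow gap, with 125, 98.0 and 101 CPM in the ERBB2-high lines against 25.5 to 93.2 CPM in the other lines.

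All 32 junction and epithelial identity genes were tested, and 0 passed. Means were at least 2-fold higher for 26 and lower for 0, with a median of 1.06. Without ESO-26 and OE33 they were 2-fold higher for 14, with a median of 0.62. An other line was highest for the list: its median distance from the mean of the 9 lines was 1.43, 1.69 and 1.41 log2 units in OACP4_C, SK-GT-4 and ESO-51, against 1.71 in OAC_5.1_C, 0.85 in FLO-1 and at most -0.12 in the remaining other lines. The groups did not overlap for 4 members, among them JUP, PRSS8 and SPINT1, or 12.5% of the list beside 2.18% of all genes. JUP, the plakoglobin of desmosomes and adherens junctions and also a 17q gene, stood at 4138, 8257 and 3153 CPM in OACP4_C, SK-GT-4 and ESO-51, against 35.9 to 596 CPM in the other lines with a median of 441 CPM. Its log2 fold change was 3.89 ± 0.85 (SE; edgeR adjusted p = 0.470, DESeq2 adjusted p = 0.00146). PRSS8, a membrane serine protease, stood at 115, 57.9 and 182 CPM in the ERBB2-high lines, against 0.151 to 44.6 CPM in the other lines. E-cadherin (CDH1) overlapped, at 416, 548 and 498 CPM in the ERBB2-high lines against 0.174 to 449.7 CPM in the other lines, with OAC_5.1_C the highest of these.

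Differentiation genes divided the 3 lines instead of marking them as a group. Of 12 tested intestinal genes out of 22, means were 2-fold higher for 9 and lower for 0, with a median of 1.67. The median was -0.60 without SK-GT-4 and -0.27 without ESO-51. VIL1 (villin of the brush border) stood at 0.668 CPM in OACP4_C but 342 and 285 CPM in SK-GT-4 and ESO-51, against 0.116 to 1.97 CPM in the other lines (log2 fold change 8.48 ± 1.52, SE; edgeR adjusted p = 0.348), and was the 1 gene of the list that DESeq2 called. GUCY2C, the guanylin receptor, was high in ESO-51 alone, at 133 CPM, with 0.839 and 0.0967 CPM in OACP4_C and SK-GT-4 and 0.637 to 7.56 CPM in the other lines. Of 9 tested gastric genes out of 17, means were 2-fold higher for 4 and lower for 0, and the median of 2.31 was -3.05 without SK-GT-4. Without ESO-26 and OE33 the count was 4 higher and 3 lower. LYZ (lysozyme) stood at 2096 CPM in SK-GT-4 but 0.497 and 1.99 CPM in OACP4_C and ESO-51, against 0 to 1.45 CPM in the other lines. CLDN18, a gastric claudin and drug target, stood at 0.360, 19.0 and 0 CPM in OACP4_C, SK-GT-4 and ESO-51, against 0 to 1.36 CPM in the other lines.

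Mucins also divided the lines: of 10 tested, out of 14, means were 2-fold higher for 5 and lower for 1. Without ESO-26 and OE33 the count was 3 higher and 3 lower, and without the library labelled OE19 it was 8 higher and 1 lower. MUC1 stood at 19.5, 215 and 34.8 CPM in OACP4_C, SK-GT-4 and ESO-51, against 4.47 to 47.2 CPM in the other lines. MUC20 stood at 177, 21.1 and 43.2 CPM in the ERBB2-high lines, against 0.227 to 32.8 CPM in the other lines.

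Mesenchymal and squamous genes lay on the lower side. Of 10 tested mesenchymal genes out of 22, means were at least 2-fold lower for 7 and higher for 0, with a median of -1.95, or -6.47 without OACP4_C. VIM (vimentin), an intermediate filament protein, stood below every other line, at 0.188, 0.0322 and 0.0894 CPM in OACP4_C, SK-GT-4 and ESO-51. In the other lines VIM ranged from 0.723 CPM in FLO-1 to 1672 CPM in the library labelled OE19, with a median of 134 CPM (log2 fold change -11.91 ± 3.09, SE; edgeR adjusted p = 0.521). DESeq2 called 2 genes of the list, VIM and ZEB2. LGALS1 (galectin-1), named because it is among the 11 genes with a 2-fold gap, stood at 3.51, 36.8 and 0.939 CPM in the ERBB2-high lines, against 74.8 to 610.3 CPM in the other lines. ZEB2, a repressor of epithelial genes, stood at 0.223, 0.0322 and 0 CPM in the ERBB2-high lines, against 0.0710 to 17.6 CPM in the other lines. Not every mesenchymal gene was low: FN1 (fibronectin) stood at 938 CPM in OACP4_C.

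Of 13 tested squamous and basal genes out of 20, means were 2-fold lower for 5 and higher for 1, with a median of -1.82, and DESeq2 called 1. TP63 stood at 0, 0.161 and 0.0671 CPM in OACP4_C, SK-GT-4 and ESO-51, against 0 to 291 CPM in the other lines, and the highest value was that of JH_EsoAd1. PITX1 stood at 28.5, 16.02 and 5.43 CPM in the ERBB2-high lines, against 16.7 to 112 CPM in the other lines.

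**Figure D4:**
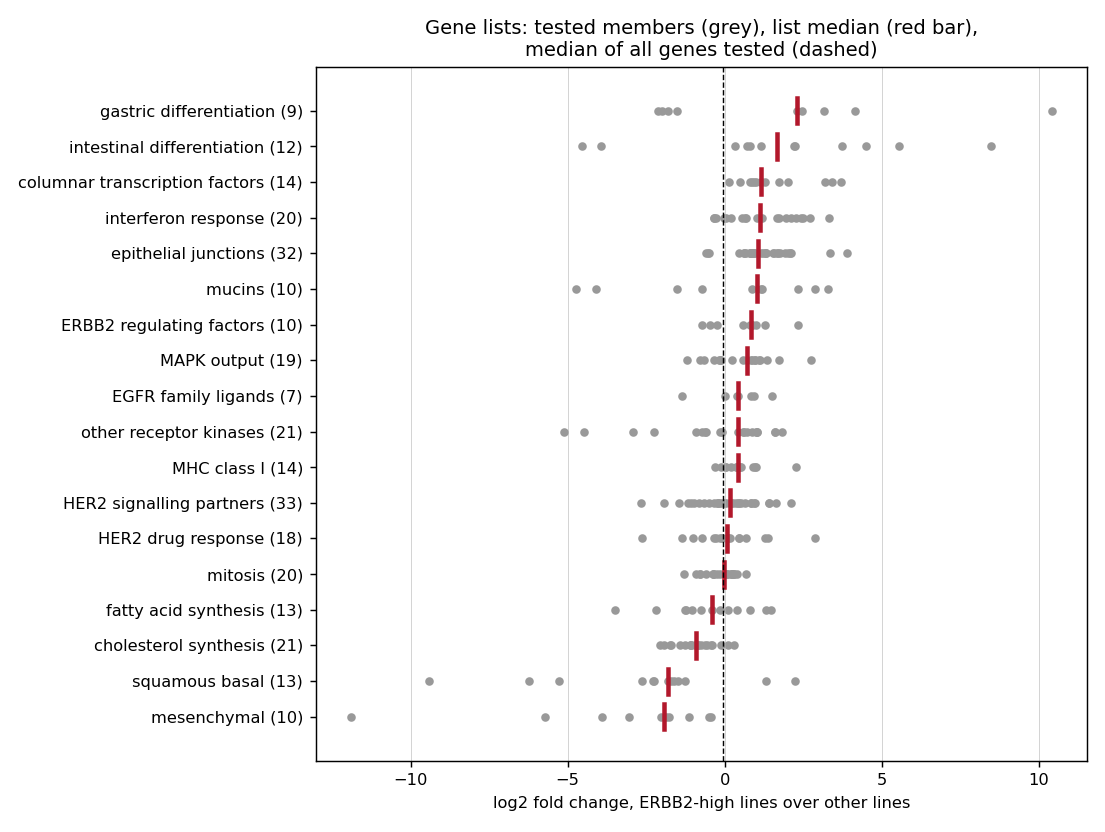
Log2 fold change of ERBB2-high lines over other lines for the tested members of each gene list (grey points), the list median (red bar) and the median of all 15784 genes tested (dashed, -0.06), with the number tested in parentheses and PPP1R1B, a 17q12 gene of the drug response list, left undrawn. List medians run from -1.95 (mesenchymal) to 2.31 (gastric differentiation), and the members of the differentiation lists spread widely.

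Most cholesterol synthesis genes had lower values in the ERBB2-high lines: of 21 genes tested, 19 had a log2 fold change below 0, and 0 passed the test, while DESeq2 called 2, LSS (adjusted p = 0.0214) and MVD (adjusted p = 0.0401). Means were at least 2-fold lower for 9 and higher for 0, with a median of -0.92, which stayed between -1.10 and -0.75 when any 1 library was left out and was -0.99 without ESO-26 and OE33. The groups did not overlap for 4 members, among them MVK, MVD and LSS, with the ERBB2-high lines below. That is 19.0% of the list, beside 1.92% of all genes. The list's median distance from the mean of the 9 lines was -0.48, -0.22 and -1.10 log2 units in OACP4_C, SK-GT-4 and ESO-51. In the other lines it ran from -0.21 in JH_EsoAd1 to 1.06 in OAC_5.1_C, so SK-GT-4 lay beside JH_EsoAd1. LSS, which closes the sterol ring, stood at 30.0, 26.7 and 27.1 CPM in OACP4_C, SK-GT-4 and ESO-51, against 49.9 to 235 CPM in the other lines with a median of 98.9 CPM (log2 fold change -2.07 ± 0.58, SE; edgeR adjusted p = 0.529). MVD, a decarboxylase of the mevalonate branch, stood at 26.4, 25.8 and 10.2 CPM in the ERBB2-high lines, against 39.4 to 112 CPM in the other lines (-1.75 ± 0.50, SE; edgeR adjusted p = 0.543). MVK, the mevalonate kinase, stood at 11.8, 13.8 and 8.78 CPM in the ERBB2-high lines, against 18.7 to 48.4 CPM in the other lines (-1.27 ± 0.40, SE; edgeR adjusted p = 0.589).

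**Figure D5:**
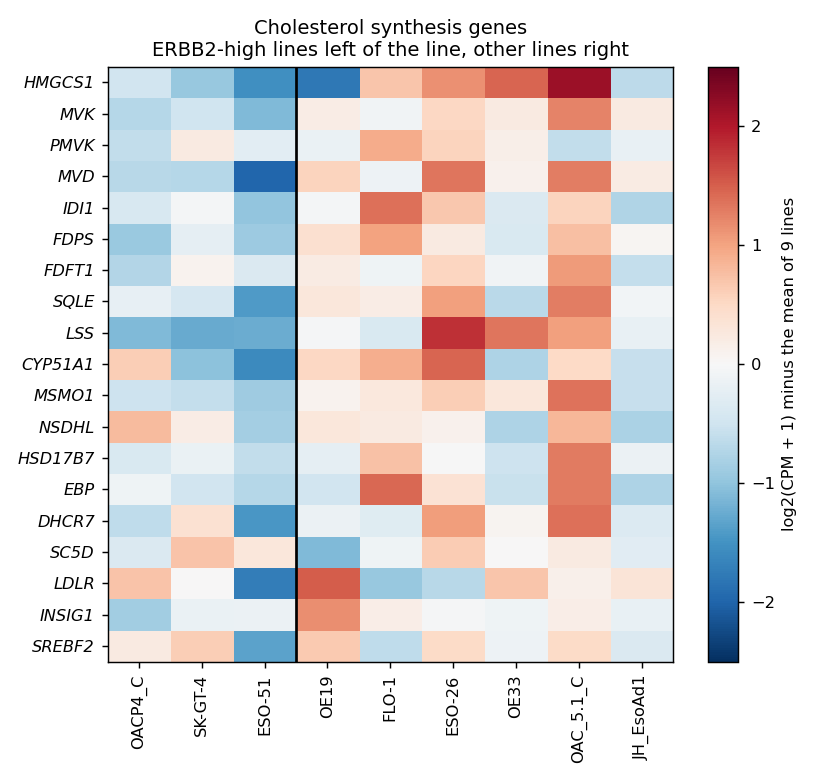
Difference of each of 19 of the 21 cholesterol synthesis genes from its mean over the 9 lines, in log2(CPM + 1), with the ERBB2-high lines at the left of the vertical line and the other lines at the right. LSS, MVD and MVK are blue in the 3 ERBB2-high columns, and OAC_5.1_C holds the strongest red.

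Fatty acid synthesis was less uniform. Of 13 tested genes out of 15, means were 2-fold higher for 3 and lower for 3 (1 and 3 without ESO-26 and OE33), with a median of -0.41. FASN (fatty acid synthase), often linked to HER2 in breast cancer, stood at 547, 482 and 275 CPM in OACP4_C, SK-GT-4 and ESO-51, against 581 to 1118 CPM in the other lines, so the ERBB2-high lines were below by a narrow gap (log2 fold change -0.77 ± 0.35, SE; edgeR adjusted p = 0.616). ACLY, which makes cytosolic acetyl-CoA, stood at 345, 154 and 96.5 CPM in the ERBB2-high lines, against 319 to 509 CPM in the other lines.

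Of the interferon-stimulated genes, OAS1 was alike in the 3 ERBB2-high lines and OAS2 was not. All 20 listed genes were tested and 0 passed. Means were 2-fold higher for 11 and lower for 1 (10 and 2 without ESO-26 and OE33). The median was 1.11 and stayed between 0.77 and 1.65 when any 1 library was left out. The groups did not overlap for 1 member, OAS1, or 5% of the list beside 2.18% of all genes. Without ESO-26 and OE33 they did not overlap for 3 higher members, beside 3.36% of all genes. OAS1, a sensor of double-stranded RNA, stood at 137, 149 and 123 CPM in OACP4_C, SK-GT-4 and ESO-51, against 0.463 to 57.3 CPM in the other lines (log2 fold change 2.12 ± 0.93, SE; edgeR adjusted p = 0.610). Its relative OAS2 stood at 122 and 98.9 CPM in OACP4_C and ESO-51 but 0.451 CPM in SK-GT-4, against 0 to 20.1 CPM in the other lines. Of 14 tested MHC class I genes the means were 2-fold higher for 1, ERAP2, and lower for 0. ERAP2, a peptide trimming protease, stood at 257, 0.161 and 54.2 CPM in OACP4_C, SK-GT-4 and ESO-51, against 2.31 to 60.7 CPM in the other lines, and NLRC5, an activator of class I genes, at 107, 3.29 and 18.3 CPM, against 1.04 to 45.0 CPM in the other lines.

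Of 20 mitosis genes 0 passed, the means were 2-fold lower for 1, KIF20A (0 without ESO-26 and OE33), and higher for 0, and the median was -0.03. KIF20A, a kinesin of cell division, stood at 55.5, 67.9 and 33.0 CPM in OACP4_C, SK-GT-4 and ESO-51, against 42.2 to 265 CPM in the other lines, and CDC20, an activator of the anaphase complex, at 71.5, 85.0 and 101 CPM, against 71.7 to 235 CPM in the other lines. Of 21 tested receptor kinases outside the family, out of 29, means were 2-fold higher for 7 and lower for 4, with DDR1 at 539, 265 and 396 CPM in the ERBB2-high lines, against 69.7 to 328 CPM in the other lines, and FGFR4 at 10.8, 71.5 and 88.8 CPM, against 3.16 to 39.4 CPM in the other lines. MET, a receptor amplified in some of these tumours, stood at 6278 CPM in OACP4_C and 12453 CPM in the library labelled OE19, and at 180.3 and 234 CPM in SK-GT-4 and ESO-51, so it does not divide the groups. Of 18 tested genes of response to HER2 drugs, out of 19, means were 2-fold higher for 4 and lower for 2, or 1 and 2 without ESO-26 and OE33. TOP1, the target of the payload of some antibody drugs, stood at 299.9, 90.05 and 141 CPM in the ERBB2-high lines, against 38.3 to 115 CPM in the other lines, and the transporter gene ABCC3 at 176, 984 and 450.0 CPM, against 15.6 to 529 CPM in the other lines.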

How the data were processed

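RNA of 9 untreated cell lines was sequenced, 1 library each. Raw read counts per gene were deposited in 1 table, and the authors' processing notes name FastQC 0.11.7, STAR 2.6.1d, R 3.6.1 and GRCh37; the strand setting and how technical replicates were merged are not given in the sources used here. FPKM values per gene were also deposited; from the values, they are the count divided by gene length and by all counts in a library's file, and they were used within a library and in alternatives. The table held 52158 named genes and 1 row without a name, which was left out of library sizes and tests (0.00485% to 0.00965% of counts).

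Counts were tested with edgeR 4.0.16 (quasi-likelihood, TMM scaling, R 4.3.3) on 15784 genes with at least 1 CPM in at least 3 libraries, ERBB2-high over other lines, with Benjamini-Hochberg adjustment and a threshold of 0.05. The code was tested on simulated data. Groups were also compared by overlap and by mean difference of log2(CPM + 1). Named genes were, per direction, 15 whose groups did not overlap, taken by fold change among those past the threshold and, as none passed, by smallest unadjusted p, skipping clone and pseudogene names; the 17q12, receptor and ligand lists whole; and the 2 members with the smallest unadjusted p of each other list. BCL2L15, CDH1, DUSP6, EIF1, ELF3, EPCAM, ETV4, FN1, LGALS1, MET, MVK, P3H4, PIK3CD, SOX9 and SPINT1 were named after their values were seen. The lines and the 23 lists (395 genes, 393 in the table) were chosen with earlier results of these data known. Alternatives were DESeq2 1.42.0, limma 3.58.1 on log2(FPKM + 0.1) and log2(FPKM + 1), other scalings, filters and pseudocounts, and leaving out lines. Floors cover counting error only, while the standard errors after ± are edgeR's and include the spread between lines. Some genes of the lists are not reported here.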

Additional observations from a re-analysis of the deposited data

Results flagged for a closer look

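Among 100 named genes examined over the 6 other lines, 7 had a library whose distance to its nearest neighbour, as a share of the whole range of log2(CPM + 1), exceeded Dixon's critical value for 6 values, and chance flags about 1 in 20 such groups. The ERBB2-high lines, being 3, were not examined in this way. ERBB2 was low in ESO-26, at 10.4 CPM, with the next line at 149.5 CPM. PPP1R1B was high in the library labelled OE19, at 454 CPM, with the next line at 4.20 CPM. PGAP3 was high in FLO-1, at 67.4 CPM, with the next line at 18.7 CPM. VIL1 was high in FLO-1, at 1.97 CPM, with the next line at 0.461 CPM. PNMA1 was low in FLO-1, at 30.3 CPM, with the next line at 60.5 CPM. In OAC_5.1_C, ACLY was low at 319 CPM, with the next line at 461 CPM, and TRIM14 was low at 9.90 CPM, with the next line at 25.0 CPM.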

How the results depend on the processing

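Counts past an adjusted p of 0.05 were 0 in both directions with edgeR under DESeq2 size factors, library size alone, no filter, a filter in 6 libraries, no mitochondrial genes and robust dispersion. DESeq2's Wald test gave 89 higher and 242 lower, with 4 listed 17q12 neighbours among them. Limma gave 2 higher on log2(FPKM + 0.1) and 5 on log2(FPKM + 1), and 1 of these 5 was the ERBB2 neighbour MIEN1. With 1 line left out, edgeR gave 0 to 1 higher and 0 lower. Genes with a 2-fold gap numbered 15 higher and 0 lower on log2(FPKM + 1), 4 lower on log2(FPKM + 0.1), 4 lower with a pseudocount of 5, 344 higher and 303 lower with no gap required, and 30 lower without ESO-26 and OE33. Leaving out 1 line gave 28 to 112 higher (112 without OACP4_C, 55 without SK-GT-4) and 14 to 57 lower. The FPKM fits moved the median of all genes to 0.30 and 0.14. FPKM divides by all counts in a library's file, and 25.8% to 77.3% of these lay outside the gene table. The FPKM scale therefore differed between lines, and its part in the FPKM results was not tested. List medians on log2(FPKM + 0.1) were 1.62 for ERBB2-regulating factors, 0.55 for HER2 drug response, -0.59 for squamous and -0.95 for mesenchymal genes. On log2(FPKM + 1) they were -0.19 for squamous, -0.53 for mesenchymal and -0.42 for cholesterol genes. Without ESO-26 and OE33 the gastric median was -0.19. Leaving out 1 line gave -0.25 to 1.07 for 17q12, 0.31 to 0.9999 for ERBB2-regulating factors, -0.39 to 0.25 for drug response, -3.05 to 2.90 for gastric, -6.47 to -1.75 for mesenchymal, -0.93 to -0.29 for fatty acid and 0.60 to 2.74 for mucin genes. The cause was not tested.

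Of 78 named genes, 67 kept their direction under 19 alternatives. Leaving out 1 line turned AREG (-0.11 to 1.64), COL1A1 (-2.08 to 0.23), CORO1A (-1.25 to 0.30), DUSP5 (-2.46 to 3.32), EGFR (-0.83 to 1.37), ERBB4 (-5.81 to 1.87), EREG (-6.93 to 0.70), ESAM (-0.51 to 1.15), GUCY2C (-2.82 to 4.31), NLRC5 (-1.10 to 1.44) and TGFA (-0.49 to 1.11). COL1A1 was 0.10 and 0.0399 and CORO1A 0.22 and 0.0343 on the FPKM scales. EREG, near 0, was -0.00629 with DESeq2 size factors, -0.00544 with the stricter filter, -0.00847 without mitochondrial genes, -0.00635 with DESeq2, -0.79 and -0.47 on the FPKM scales and -0.59 without ESO-26 and OE33, where ESAM was -0.32 and TGFA -0.22. List counts without ESO-26 and OE33 or without the library labelled OE19 were chosen after seeing the data. No paired analysis was possible because replicate numbers only name different lines.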
